A study of Homo sapiens with 4 samples.

Results

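The enzymes that build purine and pyrimidine nucleotides were followed in RNA-seq libraries of TXNDC9 wild-type and knockout cells. The set was chosen by gene name: PPAT, GART, PFAS, PAICS, ADSL, ATIC, IMPDH1, IMPDH2, GMPS and CAD, which make 10 of the 57979 genes with values. Each symbol stood on 1 line of the table, and all 10 were among the 13246 genes with an average above 1 FPKM (fragments counted, scaled to transcript length and library size) that entered the test. Of the 10, 9 belong to purine synthesis, and CAD alone stands for pyrimidine synthesis.

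The study asked how loss of TXNDC9, a thioredoxin domain protein, changes hepatocellular carcinoma cells. Polyadenylated RNA was sequenced from 2 libraries labelled wild-type HepG2, a human liver cancer line, and from 2 labelled TXNDC9 knockout, made with CRISPR-Cas9. Cells of both labels were grown in DMEM with fetal bovine serum, and no treatment is named. According to the methods, guides against TXNDC9 were delivered with a lentiviral plasmid that also carries Cas9. The study describes such cells as sorted by FACS for infection, does not mention clones for them, and also speaks of vector-alone cells. The sources do not say which guide the sequenced cells had received or whether the wild-type cells carried an empty vector. TXNDC9 itself was 35.1 and 37.3 FPKM in wild-type cells against 21.9 and 27.6 FPKM in knockout cells. The log2 fold change of −0.55 (adjusted p = 0.0145 from limma) missed the threshold of 0.01 and was 0.12 with each library rescaled to the same total (TPM). A frameshift in a coding exon need not lower the mRNA, so this level does not measure the knockout. For the knockout itself the study gives a western blot, with less TXNDC9 protein in sorted HepG2 cells that had received Cas9 and guide.

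The liver label was checked against 13 hepatoma markers, and none of them reached 1 FPKM on average. Their summed level was 0.581 and 0.733 FPKM in wild-type cells against 0.217 and 0.365 FPKM in knockout cells. APOA1 was listed at 0 in all 4 libraries, and ALB, AFP, APOB, TTR, SERPINA1 and HNF4A stood at or under 0.449 FPKM in each library. The defining transcripts of HepG2 cells were therefore at or near 0 in all 4 libraries, which are called by their labels here. Every comparison below rests on these libraries.

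De novo purine synthesis builds the purine ring step by step on phosphoribosyl pyrophosphate (PRPP) until inosine monophosphate (IMP) is made. IMP is then turned into adenosine or guanosine nucleotides. Pyrimidine synthesis makes its ring before the ribose phosphate is attached. Dividing cells draw on both routes for RNA and DNA, and several of these genes are known targets of the transcription factor MYC, whose network the study examined.

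Taken gene by gene, the 10 enzymes did not move in 1 direction. ATIC fell from 228 ± 81.5 to 62.9 ± 0.645 FPKM (SD, n = 2), and IMPDH2 fell from 332 ± 53.6 to 139.8 ± 3.47 FPKM (SD, n = 2). PPAT, at the head of the purine route, went the other way, from 10.6 ± 0.118 to 20.5 ± 1.22 FPKM (SD, n = 2), just short of a doubling. With an adjusted p under 0.01 and a change of at least 2-fold, 2 of the 10 were lower, against 15.3% of all genes tested. By the same rule 0 were higher, against 14.2% of all genes. When values were corrected for the length and GC content of transcripts (the length and GC correction), 3 were lower (ATIC, ADSL and GMPS), and IMPDH2 was not among them. Of the 13112 genes in the corrected fit, 1003 were lower and 867 higher. On FPKM as deposited, at an unadjusted p under 0.05 in limma, 7 were lower and 2 were higher, against 38.3% and 33% of all genes.

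Without the minimum fold, 5 of the 10 were lower at an adjusted p under 0.01 (ATIC, IMPDH2, IMPDH1, CAD and ADSL), where the share of all genes was 27.1%. PPAT and GART were higher by that rule, where the share of all genes was 23.7%. In 7 of the 10 both knockout values lay below both wild-type values, and in 3 they lay above, so the groups overlapped for none of these enzymes. At an adjusted p under 0.05 with no minimum fold, 6 were lower and 2 were higher, where the shares of all genes were 36.7% and 31.6%. Among all genes tested, 45.9% lay entirely below and 40.1% entirely above, so separation of the groups was the usual case in this comparison.

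**Figure D1:**
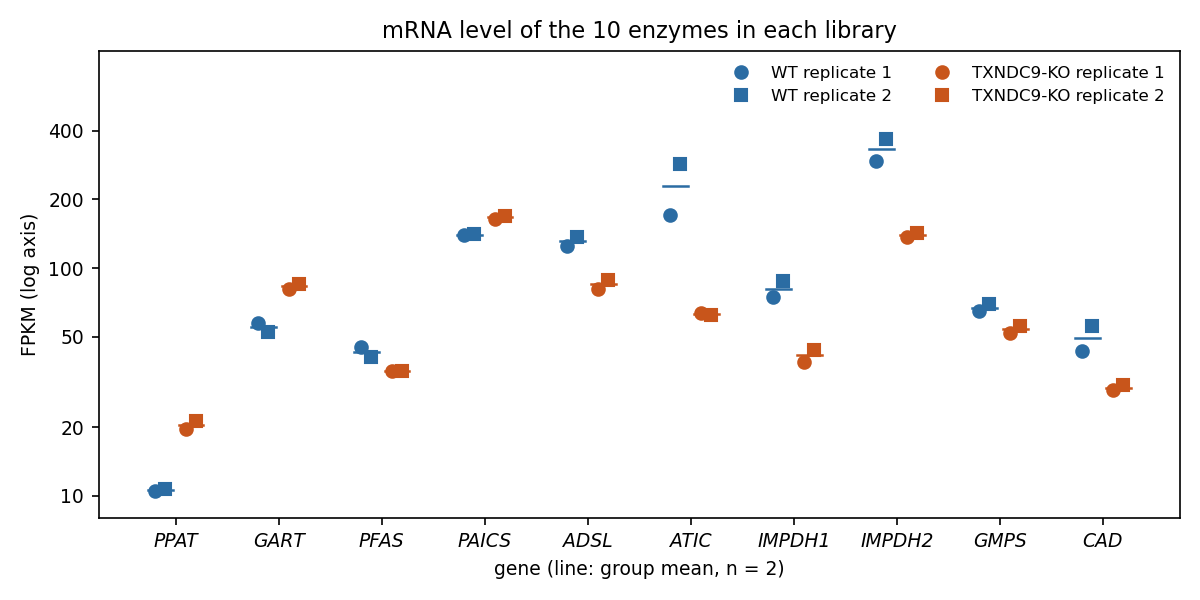
FPKM (log axis) of the 10 enzymes in the 2 wild-type (blue) and 2 knockout (orange) libraries, with circles for replicate 1, squares for replicate 2 and a line at each group mean. PPAT, GART and PAICS sit higher in both knockout libraries, and the other 7 sit lower, with the widest gap for ATIC.

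The scale of the values bears on every direction given here. Added over all genes, the wild-type libraries held 805816 and 971102 FPKM, while those of knockout cells held 535973 and 568279.5 FPKM. With TPM the median log2 fold change of all genes moved from −0.09 to 0.59. The rescaling turned the signs of PFAS, ADSL and GMPS to positive, and left CAD at −0.04. The order of the 10 changes from PPAT to ATIC was kept by TPM and by centring each library on its median. Relative to the median of all genes, the log2 changes were 1.03 for PPAT, 0.69 for GART and 0.34 for PAICS. They were −0.19 for PFAS, −0.23 for GMPS, −0.53 for ADSL, −0.63 for CAD and −0.88 for IMPDH1. The lowest were −1.15 for IMPDH2 and −1.72 for ATIC. With TPM these relative values moved by less than 0.01.

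Stretches of promoter are shown for ATIC, IMPDH1 and CAD and for the start region that PPAT and PAICS share. They were taken from RefSeq for GRCh38.p14 and are written 5′ to 3′. Capitals mark the letters CACGTG (a hexamer that MYC with MAX is known to bind), CCAAT and GGGCGG (the GC box), each searched on both strands. The stretches of ATIC, IMPDH1 and CAD hold the 250 bases before the RefSeq start on the strand of the gene. That between PPAT and PAICS holds the 125 bases separating these neighbours, which are read in opposite directions, on the strand of PAICS.
ATIC, chr2:215311809-215312058, plus strand: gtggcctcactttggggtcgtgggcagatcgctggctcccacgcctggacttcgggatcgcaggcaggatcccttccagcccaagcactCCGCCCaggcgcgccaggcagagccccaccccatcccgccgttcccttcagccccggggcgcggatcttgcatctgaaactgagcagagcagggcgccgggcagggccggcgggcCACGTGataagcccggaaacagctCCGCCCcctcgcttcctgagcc
PPAT-PAICS, chr4:56435616-56435740, plus strand: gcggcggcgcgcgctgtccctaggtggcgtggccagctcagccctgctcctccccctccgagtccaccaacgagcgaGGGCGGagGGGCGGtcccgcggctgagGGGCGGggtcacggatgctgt
IMPDH1, chr7:128409983-128410232, minus strand: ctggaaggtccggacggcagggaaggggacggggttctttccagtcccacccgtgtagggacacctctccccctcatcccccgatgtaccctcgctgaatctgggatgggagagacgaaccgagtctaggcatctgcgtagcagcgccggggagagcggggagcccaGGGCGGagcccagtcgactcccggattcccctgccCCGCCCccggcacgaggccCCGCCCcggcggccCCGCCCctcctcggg
CAD, chr2:27217119-27217368, plus strand: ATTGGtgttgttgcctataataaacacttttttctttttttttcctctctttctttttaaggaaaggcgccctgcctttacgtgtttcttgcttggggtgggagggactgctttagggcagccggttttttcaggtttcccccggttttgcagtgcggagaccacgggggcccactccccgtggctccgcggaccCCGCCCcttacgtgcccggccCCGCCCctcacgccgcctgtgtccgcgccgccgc

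Of the 10 enzymes, 8 had a promoter in the table and ADSL and IMPDH2 had none. A gene can have several promoters of that length and was counted once where any of them held the letters. CACGTG was found in 3 of the 8 (PPAT, PAICS and ATIC), in 8.77% of all 27305 genes with a promoter and in 13.1% of those tested. For PPAT and PAICS it was the same hexamer, which lies beyond the printed stretch at base 56435792, at position −182 from the PPAT start and 40 from the PAICS start. ATIC had 1 match in the printed stretch, at −46 from its start, and another at 29. GGGCGG was found in all 8, against 48.3% of all genes and 78.0% of those tested. CCAAT was found for GART and CAD, against 39.7% of all genes and 43.7% of those tested. The genes with CACGTG included the lowest and the highest of the 10 changes.

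PPAT (ENSG00000128059, chromosome 4 from 56393362 to 56435615) transfers the first nitrogen to PRPP and is the committed, feedback-controlled step of the route. Its mRNA was the least abundant of the 10, at 10.5 and 10.7 FPKM in wild-type cells against 19.6 and 21.3 FPKM in knockout cells. The knockout values were both higher, by a mean of 1.93-fold. On the log2 scale this was 0.94 with a standard error of 0.10 (adjusted p = 8.71e-04). With TPM it was 1.62, past 2-fold. The length and GC correction lowered it to 0.38 (adjusted p = 0.0244).

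GART (ENSG00000159131, chromosome 21 from 33503931 to 33543491) carries several reactions of the purine route on a single protein and takes up a formyl group from folate. It read 57.5 and 52.3 FPKM in wild-type cells against 81.1 and 85.2 FPKM in knockout cells. The log2 fold change of 0.60 (standard error 0.11, adjusted p = 0.00428) stayed under 2-fold. With TPM it was 1.28 (adjusted p = 3.66e-04), past 2-fold, and after the length and GC correction 0.36 (adjusted p = 0.0209). PFAS (ENSG00000178921, chromosome 17 from 8247618 to 8270491), an amidotransferase of the same route, gave 44.9 and 40.7 against 35.2 and 35.3 FPKM. Its log2 fold change of −0.28 had a 95% interval from −0.53 to −0.02 and an adjusted p of 0.0548. PFAS did not pass the test, and with TPM its log2 fold change was 0.40.

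PAICS (ENSG00000128050, chromosome 4 from 56435741 to 56464578) joins a carboxylase and a ligase step and is the neighbour of PPAT described above. Its levels were 140.3 and 140.5 FPKM in wild-type cells against 164 and 170.0 FPKM in knockout cells. The log2 fold change was 0.25 with a 95% interval from −0.02 to 0.52 (adjusted p = 0.0865), which missed the threshold. With TPM it was 0.93 (adjusted p = 4.26e-04) and after the length and GC correction −0.59 (adjusted p = 0.00476), so the sign of PAICS depended on the processing. The 2 neighbours on chromosome 4 did not change by the same amount. Within each library the level of PAICS was 13.4 and 13.2 times that of PPAT in wild-type cells, and 8.34 and 7.97 times in knockout cells. This ratio does not move with the scaling of a library, and its values did not overlap between the groups. An exact permutation test of 2 against 2 libraries gave p = 0.333 (two-sided), the smallest value this design allows.

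ADSL (ENSG00000239900, chromosome 22 from 40346461 to 40390463) cleaves off fumarate both on the way to IMP and on the way to AMP. It gave 125 and 136 FPKM in wild-type cells against 81.0 and 89.0 FPKM in knockout cells, a log2 fold change of −0.62 (standard error 0.12, adjusted p = 0.00476). With TPM the log2 fold change was 0.06 (adjusted p = 0.618). The length and GC correction gave −1.10 (adjusted p = 0.00143), past 2-fold. ADSL shares 1344 exon bases with another annotated gene on the same strand, so part of its value could belong to that gene.

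ATIC (ENSG00000138363, chromosome 2 from 215311956 to 215349773) carries out the last reactions that close the ring and give IMP. Its values were 171 and 286 FPKM in wild-type cells against 63.3 and 62.4 FPKM in knockout cells. The wild-type libraries differed more from each other than for any other enzyme of the set, yet both lay far above the knockout libraries. The mean was 3.63-fold higher in wild-type cells, a log2 fold change of −1.81 (standard error 0.24, adjusted p = 0.00158). ATIC passed with TPM (−1.13) and after the length and GC correction (−1.64), while both together gave −0.96, just under 2-fold. Leaving out any 1 library gave values between −2.18 and −1.44.

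IMPDH1 (ENSG00000106348, chromosome 7 from 128392277 to 128409986) and IMPDH2 (ENSG00000178035, chromosome 3 from 49024325 to 49029447) are isozymes that oxidise IMP, the rate-limiting step towards guanine nucleotides. IMPDH2 is the form that rises with proliferation. It was the most abundant of the 10 in wild-type cells, at 294 and 370.0 FPKM, and read 137 and 142 FPKM in the knockout libraries. This fall had a log2 value of −1.24 (standard error 0.15, adjusted p = 0.00116), and of −0.56 with TPM, which no longer passed the fold. The length and GC correction gave −0.75. IMPDH1 gave 74.9 and 87.7 FPKM against 38.8 and 43.8 FPKM, a log2 fold change of −0.97 (adjusted p = 0.00149). That is just under 2-fold. For IMPDH1 TPM gave −0.29 (adjusted p = 0.0363) and the correction −0.35 (adjusted p = 0.0534), and neither passed the threshold. Centring each library on its median gave −1.12 (adjusted p = 5.71e-04), past 2-fold.

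Both isozymes were lower, and their balance moved little. The IMPDH1 level was 0.255 and 0.237 of the IMPDH2 level in the wild-type libraries and 0.283 and 0.308 in the knockout libraries. The ratios did not overlap, with p = 0.333 in the exact permutation test, the smallest possible. IMPDH2 shares 1680 exon bases with another annotated gene on its strand, so its value is uncertain to that extent.

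GMPS (ENSG00000163655, chromosome 3 from 155870650 to 155944020) completes GMP. It gave 64.8 and 69.3 FPKM in wild-type cells against 51.8 and 55.9 FPKM in knockout cells. The difference of −0.32 on the log2 scale, with a 95% interval from −0.58 to −0.05 (adjusted p = 0.0401), missed the threshold, and with TPM it was 0.36. Its canonical transcript of 8631 nt was the longest of the set, and after the length and GC correction its log2 fold change was −1.37. The step that takes IMP towards AMP is made by isozymes outside the set. ADSS gave 43.2 and 38.9 against 65.2 and 64.7 FPKM, a log2 fold change of 0.66 (adjusted p = 0.00280), and stayed under 2-fold. With TPM it was 1.34.

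CAD (ENSG00000084774, chromosome 2 from 27217369 to 27243943) holds the first reactions of pyrimidine synthesis on a single large protein. It gave 43.3 and 55.4 FPKM in wild-type cells against 29.0 and 30.5 FPKM in knockout cells. The log2 difference was −0.72 (standard error 0.14, adjusted p = 0.00624), under 2-fold, and −0.04 with TPM (adjusted p = 0.759). DHODH, the mitochondrial enzyme that follows, had a log2 fold change of −0.79 (adjusted p = 0.00291). UMPS, which completes UMP, had −0.63 (adjusted p = 0.00865), and CTPS1, which makes CTP, had −0.52 (adjusted p = 0.0105). With TPM these values were −0.11 for DHODH, 0.04 for UMPS and 0.16 for CTPS1. After the length and GC correction they were −0.96 for DHODH, −1.28 for UMPS and −0.59 for CTPS1, and that of CAD was −0.87. The CAD level was 1.04 and 1.05 times that of UMPS in wild-type cells and 0.985 and 0.987 times in knockout cells. The enzymes at the start and the end of the UMP route thus stood at about the same level in each of the 4 libraries.

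**Figure D2:**
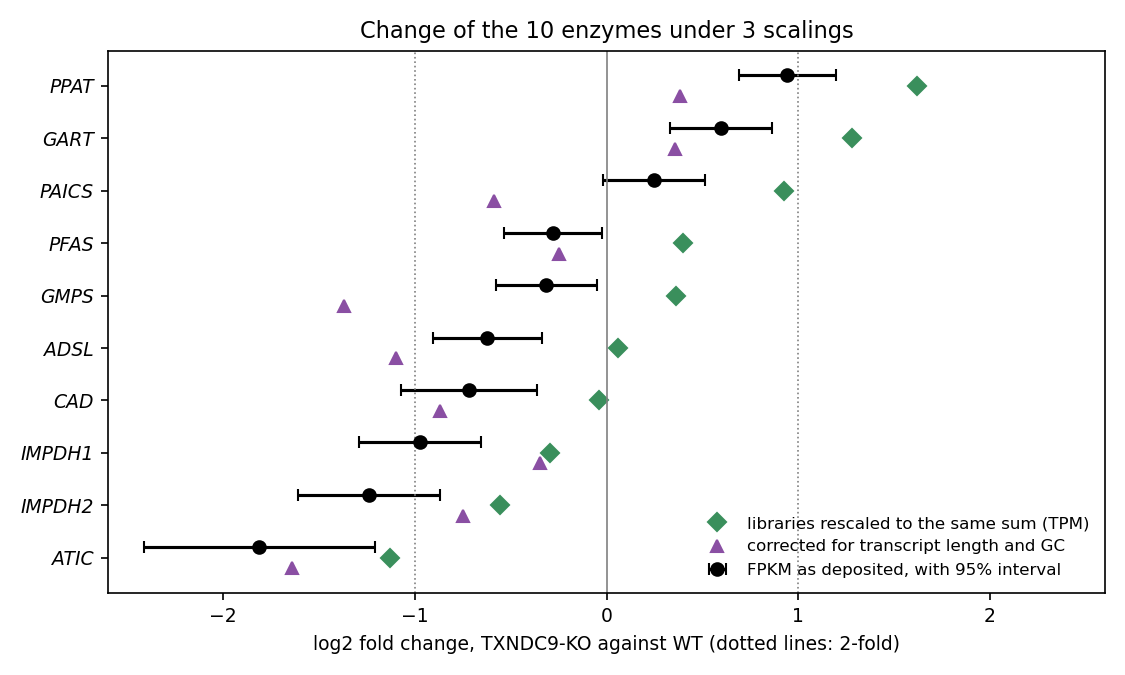
Log2 fold change of each enzyme, knockout against wild type, ordered from the highest to the lowest: black circles with 95% intervals for FPKM as deposited, green diamonds after rescaling to TPM, purple triangles after correction for transcript length and GC content. TPM moves all 10 to the right by about the same amount, and the correction turns PAICS to −0.59 and lowers GMPS to −1.37, while ATIC stays below −1 on each scale.

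Across the 13112 tested genes with an annotated canonical transcript, longer and more AT-rich transcripts had higher log2 fold changes. Spearman's rho was 0.495 for length and −0.462 for GC content. Across the 10 enzymes the correlations were 0.430 and −0.564, over points that share the same 4 libraries. PPAT had the lowest GC content of the 10 (37.9%) and IMPDH1 the highest (61.9%), while IMPDH2 had the shortest transcript (1651 nt). After the correction PPAT and GART stayed the highest and ATIC the lowest, and PAICS changed sign. What part length and GC content had in the changes was not tested further. In bulk RNA, fewer transcripts per cell and fewer cells with a transcript cannot be told apart.

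FPKM is scaled to length, but changes between the groups went with length and GC content. The orders given next are those of FPKM as deposited. In the wild-type libraries the order was IMPDH2, ATIC, PAICS, ADSL, IMPDH1, GMPS, GART, CAD, PFAS and PPAT. Neighbours did not overlap except for CAD, whose values overlapped those of GART and PFAS. In the knockout libraries PAICS came first, ahead of IMPDH2, and the values of ADSL and GART overlapped. ATIC, second in wild-type cells, was below GART there. After the length and GC correction the log2 fold changes of PAICS and IMPDH2 were −0.59 and −0.75, and the order on that scale was not compared.

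The summed level of the 10 was 1027 and 1249 FPKM in wild-type cells against 701 and 736 FPKM in knockout cells. As a share of the library sum it hardly moved, with 0.127% and 0.129% in wild-type and 0.131% and 0.129% in knockout cells. The make-up within this sum differed more in FPKM as deposited. Shares were not computed after the length and GC correction, which gave log2 fold changes of −0.59 for PAICS and −0.75 for IMPDH2. It gave 0.36 for GART and −1.64 for ATIC. ATIC made up 16.6% and 22.9% of it in wild-type and 9.04% and 8.49% in knockout cells. IMPDH2 went from 28.7% and 29.6% to 19.6% and 19.3%. PAICS went the other way, from 13.7% and 11.2% to 23.3% and 23.1%, and GART from 5.60% and 4.19% to 11.6% in both knockout libraries. The share of PPAT was 1.02% and 0.854% in wild-type and 2.80% and 2.90% in knockout cells. ADSL was the only enzyme whose share overlapped between the groups. For each of the other 9 shares the exact permutation test gave p = 0.333, the smallest possible, and the 10 shares are not independent, since they add up to the whole.

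**Figure D3:**
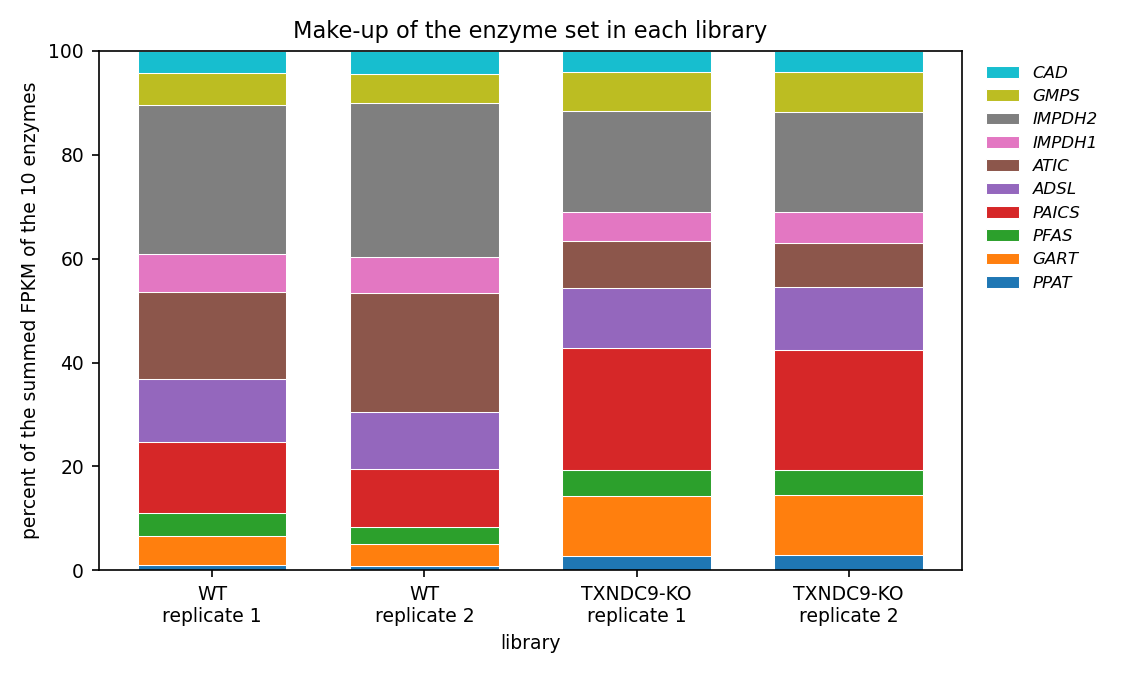
Percent of the summed FPKM (as deposited) of the 10 enzymes held by each of them, in the 2 wild-type and 2 knockout libraries (stacked bars from 0 to 100). The brown ATIC and grey IMPDH2 blocks are smaller in both knockout libraries, and the red PAICS and orange GART blocks are larger.

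The rest of nucleotide metabolism was read from 8 lists with 66 tested genes of 80. Of these 66, 13 were lower and 4 were higher with an adjusted p under 0.01 and at least 2-fold, where 15.3% and 14.2% of all genes were. The median log2 fold change was −0.25, against −0.09 for all genes. The AMP isozymes, salvage, breakdown, folate, deoxynucleotide and kinase lists had more genes past both thresholds on the higher than on the lower side with TPM, as all genes did. For PRPP synthesis none of 4 tested genes passed in limma (0 lower and 1 higher at an unadjusted p under 0.05). PRPS1 and PRPS2, which supply PRPP to PPAT, had log2 fold changes of 0.23 (adjusted p = 0.0850) and 0.30 (adjusted p = 0.0407). Beyond CAD, none of the 4 genes of pyrimidine synthesis passed the fold either (3 lower and 0 higher at an unadjusted p under 0.05), nor did the 2 AMP isozymes (1 lower and 1 higher). After the length and GC correction 1 of the 4 pyrimidine genes, UMPS, was lower past both thresholds.

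Salvage and the nucleotide kinases held most of the falls. In salvage, which reuses bases and nucleosides, 3 of 11 tested genes were lower and 0 higher (5 and 2 at an unadjusted p under 0.05), and with TPM 0 were lower and 2 higher. After the length and GC correction 0 salvage genes were lower and 0 higher (4 and 1 at an unadjusted p under 0.05). APRT, which reuses adenine, fell from 280 and 356 to 97.8 and 102 FPKM, a log2 fold change of −1.66 (adjusted p = 6.23e-04), or −0.98 with TPM and −0.60 after the correction. HPRT1, which reuses hypoxanthine and guanine, had a log2 fold change of −0.22 (adjusted p = 0.114), and 0.46 with TPM. Of 13 tested nucleotide kinases, 7 were lower and 0 higher (9 and 3 at an unadjusted p under 0.05), with a median of −1.02 that became −0.35 with TPM. With TPM 1 kinase was lower and 3 were higher, and the length and GC correction left 2 lower. AK1, an adenylate kinase, fell from 138 and 190 to 47.3 and 53.2 FPKM.

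Deoxynucleotide synthesis turns ribonucleotides into the building blocks of DNA. Of its 7 tested genes, 0 were lower and 1 was higher (1 and 2 at an unadjusted p under 0.05). RRM1 and RRM2, the subunits of ribonucleotide reductase that work in dividing cells, had log2 fold changes of 0.16 (adjusted p = 0.347) and −0.07 (adjusted p = 0.604), and 0.84 and 0.61 with TPM. TYMS, which makes dTMP, had −0.25 (adjusted p = 0.0879), and 0.43 with TPM. RRM2B, the small subunit known to respond to p53, rose from 3.61 and 4.14 to 11.3 and 12.3 FPKM, a log2 fold change of 1.59 (adjusted p = 5.41e-04), or 0.72 after the correction.

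Among genes of nucleotide breakdown, 3 of 17 tested were lower and 2 higher, with TPM 1 and 5, and after the correction 0 and 2. NT5C2, a cytosolic nucleotidase with a preference for IMP and GMP, rose from 30.7 ± 1.79 to 103.9 ± 2.31 FPKM (SD, n = 2). Its log2 fold change was 1.76 (adjusted p = 4.88e-04), and 1.41 after the correction. NT5C, another nucleotidase, fell from 118 and 145 to 36.2 and 37.1 FPKM. Of 8 tested folate enzymes, 0 were lower and 1 higher (3 and 3 at an unadjusted p under 0.05). MTHFD1, MTHFD2 and SHMT2, which supply formyl groups, had log2 fold changes of 0.07, 0.47 and −0.55, with adjusted p-values of 0.762, 0.00912 and 0.00536. In the same order they were 0.75, 1.15 and 0.13 with TPM, and −0.07, −0.13 and −0.08 after the length and GC correction. The corrected values had adjusted p-values from limma of 0.803, 0.294 and 0.500.

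**Figure D4:**
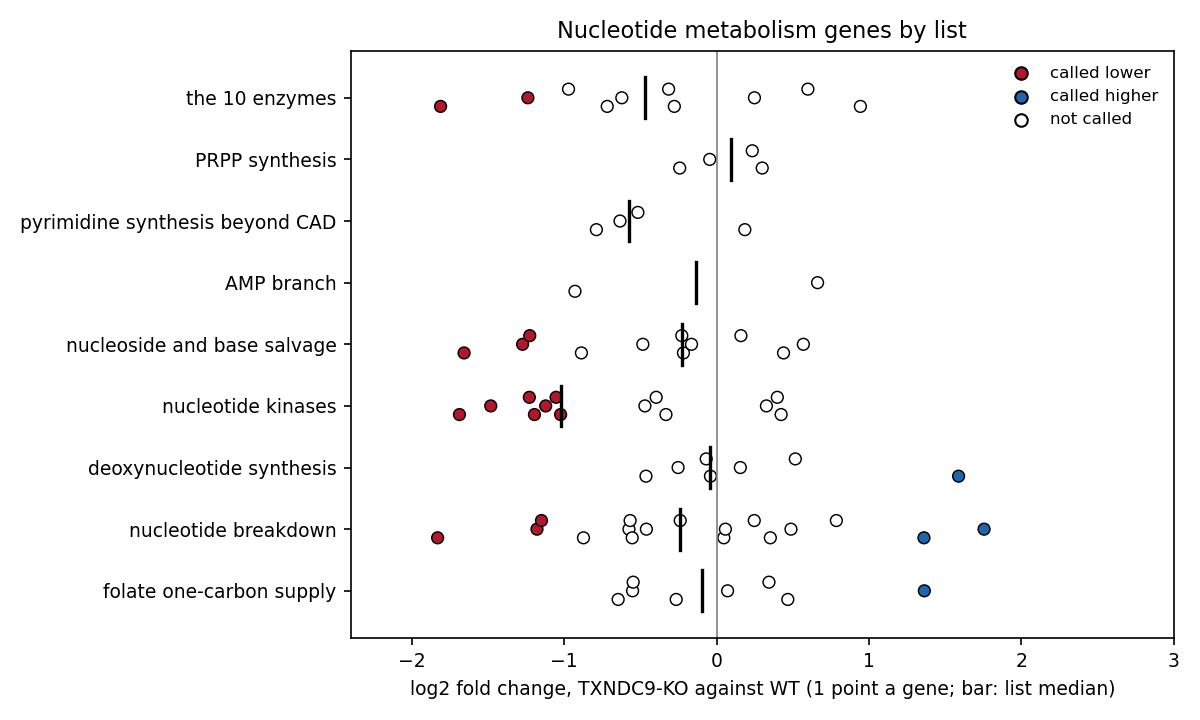
Log2 fold change, knockout against wild type, of the 10 enzymes and of each tested gene in 8 lists of nucleotide metabolism, 1 point a gene, with a bar at the list median. Red points (lower, adjusted p under 0.01 and at least 2-fold on FPKM as deposited) gather in the kinase row, where 7 of 13 are red, and blue points (higher) are 1 for deoxynucleotide synthesis, 2 for breakdown and 1 for folate.

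Cell division genes were read beside the enzymes, because nucleotide synthesis follows growth. Of 18 proliferation markers, 1 was lower (AURKB, with a log2 fold change of −1.47) and 0 were higher in limma (5 and 5 at an unadjusted p under 0.05). Their median was −0.07, close to that of all genes, and with TPM 0 were lower and 5 higher. MYC was 175 and 168 FPKM in wild-type cells against 129 and 130.1 FPKM in knockout cells. Its log2 fold change was −0.41 (adjusted p = 0.0182), 0.28 with TPM and −0.64 after the length and GC correction (adjusted p = 0.00307). The study reports less MYC protein in knockout cells by western blot, and slower growth. These mRNA values do not measure either. What part growth or MYC had in the values of the 10 enzymes was not tested.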

How the data were processed

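RNA-seq of 2 wild-type and 2 TXNDC9 knockout libraries was analysed. The authors mapped reads to hg38 with TopHat2 and an Ensembl annotation and deposited an FPKM table that Cuffdiff had made, with 1 value for each gene in each library. Versions, library normalization and strand setting are not given in the sources used here. The columns with the authors' own fold changes and tests were not used. FPKM are not counts, so the depth is unknown and no counting intervals are given. Identifiers stood on other lines than their symbols; symbols were used, and identifiers were put back in order.

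Genes with an average above 1 FPKM were compared on log2(FPKM + 0.1), which understates changes of low genes, with limma 3.58.1 in R 4.3.3 (trend, Benjamini-Hochberg adjustment over 13246 genes, no replicate block). Thresholds of adjusted p under 0.01 and 2-fold followed the study. Nothing says that libraries came from separate cultures, so p-values measure the spread between libraries, which may be technical. The test was checked on simulated data. Gene positions, transcript lengths and GC content came from GENCODE release 44, and promoters from RefSeq. The loess correction of each library for length and GC had a span of 0.3. Ratios were compared with exact permutation tests in scipy 1.17.1.

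The enzymes and lists were chosen with earlier results of these data known. Named genes were the 10 enzymes, TXNDC9, MYC, 14 fixed genes of neighbouring steps and, in each list, the called genes with the largest fall and rise; 1 of these is not reported here. The marker lists covered proliferation, hepatoma, fibroblast, leukocyte and endothelial genes. Alternatives were pseudocounts of 1 and 0.01, no filter or an average above 5 FPKM, TPM, median centring, no trend, the block, the correction, other thresholds and leaving out each library.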

Additional observations from a re-analysis of the deposited data

How the results depend on the processing

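Of the 10 enzymes, 2 were lower and 0 higher. With TPM 1 was lower and 2 were higher, and over all genes 447 were lower and 4380 higher (90.7% of calls higher) against 2021 and 1885 (48.3%). Centring on the median made it 2601 and 1452 (35.8%), and of the enzymes 3 were lower (ATIC, IMPDH2 and IMPDH1) and 0 higher. With TPM 3 log2 fold changes turned positive and became 0.40 for PFAS, 0.058 for ADSL and 0.36 for GMPS. The length and GC correction turned PAICS to −0.59, also with the replicate block, and left 1003 lower and 867 higher genes. It gave 3 lower enzymes, ATIC, ADSL and GMPS, while IMPDH2 (−0.75) lost its call. The correction with TPM, chosen after seeing the data, gave 0 lower and 2 higher enzymes, with PFAS at 0.43 and IMPDH1 at 0.33. Of all 13112 genes in that fit, 241 were lower and 3347 higher (93.3% of calls higher). The causes of these shifts were not tested. With an adjusted p under 0.05 and no minimum fold, 6 were lower and 2 higher, and at 0.01 with no minimum fold 5 and 2.

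With each library left out in turn, between 0 and 3 enzymes were lower and 0 were higher. These fits assume that the lone library varies like the others. Without either knockout library no gene of the whole table passed in limma, ATIC and IMPDH2 included, so these fits say nothing about the enzymes in particular. Without wild-type replicate 1 IMPDH1 passed as well. The log2 fold change of ATIC lay between −2.18 and −1.44 and that of CAD between −0.90 and −0.54. The other pseudocounts, filters and no trend changed no 2-fold call of an enzyme. Without a minimum fold, no trend took ADSL, CAD and GART above 0.01, with adjusted p-values from limma of 0.0109, 0.0164 and 0.0110. The fit with no filter drew a warning that its variances are unreliable. With the replicate block 2 enzymes were lower and 0 higher. The deviations of same-numbered libraries had a correlation of −0.0904 over 13246 genes, so no shift shared by same-numbered libraries was seen. With so few libraries this cannot say whether they were prepared as pairs. Because the files hold no counts, what the depth limits cannot be stated.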

Other observations

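Markers of other cell types were not all at 0, and fibroblast markers summed far above the hepatoma markers. The 13 hepatoma markers summed to 0.581 and 0.733 FPKM in wild-type cells and 0.217 and 0.365 FPKM in knockout cells. The summed level of 7 fibroblast markers was 54.3 and 49.7 FPKM in wild-type cells against 38.5 and 34.6 FPKM in knockout cells, carried by COL1A1 and COL3A1, with COL1A2 listed at 0 in all 4. PDGFRB, a growth factor receptor of mesenchymal cells, rose from 0.905 ± 0.241 to 2.81 ± 0.274 FPKM (SD, n = 2), while the other 3 tested fibroblast markers had negative log2 fold changes and none was lower by 2-fold. The 5 leukocyte markers summed to between 3.90 and 7.40 FPKM, nearly all of it CD68, with CD3E at 0 in all 4 libraries. The 4 endothelial markers summed to 0.803 and 1.22 FPKM in wild-type cells against 4.41 and 3.42 FPKM in knockout cells, and CDH5, an endothelial cadherin, rose from 0.751 and 1.07 to 4.26 and 3.14 FPKM. KRT8, a simple epithelial keratin named after its values were seen, was 4303 and 5444 FPKM in wild-type cells against 1408 and 1418 FPKM in knockout cells. The part of these genes in the values of the 10 enzymes was not tested.

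The table lists 14 pseudogenes named after PPAT, PAICS, IMPDH1 or GMPS. Of these, 10 were at 0 in all 4 libraries, and the highest value was 0.873 FPKM.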
